A study of Mus musculus with 8 samples.

Results

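The Zfp genes of the mouse encode zinc finger proteins, most of them with arrays of C2H2 fingers, in which paired cysteines and histidines hold a zinc ion. The 240 genes described here were chosen by name and by abundance: their symbol is Zfp followed by a number alone, and their counts summed over the 8 libraries reached at least 400. Zfp36, an RNA-binding protein of another finger class, was left out by name. The table holds 380 Zfp rows of this form among 55880 rows in all, and 139 of them were under the minimum. The summed counts selected on are a description only, and the rule itself does not use the difference between LMF and Control. The family was, however, chosen with earlier results of these data known, so the choice was not blind to that difference.

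RNA was sequenced from mouse dendritic cells, the antigen-presenting cells that marrow precursors give in culture. The marrow was that of male wild-type C57BL/6 mice aged 6 weeks. All cells were cultured for 6 days with 10 ng/mL IL-4 and 20 ng/mL GM-CSF. The 4 LMF libraries are from cells kept for 24 h with ITRs, a name the labels leave unexplained, and then given a low-frequency magnetic field. The 4 Control libraries are from untreated cells, and RNA of both groups was taken 6 h after treatment. ITRs and field come together in LMF, so the effect of either cannot be told apart from that of the other. Another treatment named in the design, magnetic rod-shaped micromotors, was not analysed here. The labels do not say that libraries of a group came from separate cultures or mice, and p-values therefore speak of the spread among these libraries alone, which could be technical.

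Total counts were 16592672 to 18532878 in LMF libraries and 17309368 to 21585750 in Control libraries, and 14074 genes passed the filter on low counts. The 8 dendritic cell markers, among them Itgax, Flt3 and H2-Ab1, summed to 5608 to 6402 CPM (counts relative to library size after TMM normalization) in LMF libraries and 5714 to 6064 CPM in Control libraries, with 4 of 8 called higher and 2 lower. The 8 macrophage markers summed to 4008 to 4154 CPM in LMF and 5867 to 6551 CPM in Control, with 6 of 8 called lower and none higher. Neutrophil markers summed to 1577 to 1815 CPM in LMF and 1425 to 1486 CPM in Control, with 5 of 8 called higher and 1 lower. Mast cell and basophil markers summed to 124 to 139 CPM in LMF and 104 to 118 CPM in Control (2 of 5 tested higher, none lower). B cell markers summed to 44.1 to 51.8 CPM in LMF and 53.0 to 58.1 CPM in Control (1 of 6 lower), and T cell markers to 9.65 to 12 CPM in LMF and 9.28 to 11.6 CPM in Control (none of 5 tested called). No list had a marker at 0 in every library. Whether these shifts play a part in the values of the Zfp genes was not tested, and in bulk RNA fewer cells of a type and less RNA per cell cannot be told apart.

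Each C2H2 finger contacts a few neighbouring bases of DNA, so an array of fingers reads a longer stretch. Many family members also carry a KRAB box, a short domain that binds the corepressor Trim28, which brings Setdb1, heterochromatin proteins and the NuRD complex to silence chromatin, retroelements above all. KRAB zinc finger genes arose by repeated local duplication and still lie in clusters of near relatives. Members without a KRAB box include transcription factors, corepressors and proteins of RNA metabolism and ribosome quality control.

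A KRAB box was found in 138 of the 240 genes and not found in 102, by a search of proteins translated from the GENCODE M21 annotation (GRCm38, mm10). The KRAB genes held a median of 12 fingers and the others a median of 7, with a maximum of 40 in Zfp142. In 12 of the 240 genes the search found 0 or 1 finger, among them Zfp503 (0), Zfp703 (0) and Zfp395 (1). Per length, the 240 genes had a median of 3.32 FPKM (a unit scaled to gene length and library depth, the authors' values), against 4.88 FPKM for all tested genes. The KRAB genes stood at a median of 2.45 FPKM and the others at 5.16 FPKM. Zfp207, Zfp217 and Zfp106 were the most abundant by FPKM. The rule's edge lies at low counts: Zfp125, Zfp772 and Zfp524 had 406, 406 and 421 summed counts, and Zfp532, Zfp456 and Zfp58, just outside, had 397, 397 and 394.

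The promoter of Zfp503, the gene with the largest increase, is shown because Zfp promoters were rich in CpG. RefSeq promoter entries (GRCm38.p6, 250 bases before the start) matched 198 of the 240 genes, with 241 entries. They held a median of 12 CpG dinucleotides, against 6 in all 32851 promoters of the table. The median was 9 in promoters of the KRAB genes and 17.5 in those of the others. Those promoters belong to 27025 genes and were not limited to expressed genes, while the Zfp genes were chosen by abundance. This contrast and those of the motifs below are therefore not matched for expression. The Zfp503 promoter lies at chr14:21989602-21989851 on the minus strand, has 13 CpG and is 57.2% G and C. Zfp503 has no KRAB box, and its 13 CpG are fewer than the median of 17.5 for such genes. It is printed with its CpG in capitals.

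Zfp503: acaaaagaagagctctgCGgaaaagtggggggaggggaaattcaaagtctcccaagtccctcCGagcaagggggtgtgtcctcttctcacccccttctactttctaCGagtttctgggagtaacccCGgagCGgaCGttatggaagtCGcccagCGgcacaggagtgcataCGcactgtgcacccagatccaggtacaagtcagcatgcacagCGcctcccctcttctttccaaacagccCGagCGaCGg

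The next sequences are shown because they hold the core letters ACTACAA of the motif bound by Zfp143, itself a member of the family and an activator at many promoters. The core, on either strand, was in 6.22% of the 241 promoters of the Zfp genes and in 2.81% of all promoters. It was in 5 of 50 promoters (10.0%) of 42 genes called lower in LMF, too few hits to set apart from the family's share. In all, 15 Zfp promoters held the core, most of them of genes not called lower. A link between the core and the change in LMF was not tested. The 13 promoters of genes called higher are too few to read a share from, and none held the core. For 5 genes called lower, a window of 30 bases is given on the strand that reads ACTACAA, with the core in capitals. The windows lie at chr13:74391037-74391066 for Zfp72, chr11:58307016-58307045 for Zfp692, chr8:3493108-3493137 for Zfp358, chr7:12478276-12478305 for Zfp606 and chr12:40445972-40446001 for Zfp277, each on the plus strand.

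Zfp72: gtagaACTACAAaatgaattcattgagatg
Zfp692: ggctaACTACAAttcccggcaggctttgca
Zfp358: agcgaACTACAAgtcccagcagctcccgca
Zfp606: ttgaaACTACAActcccaatagtcctcgcg
Zfp277: taagaACTACAActtccagcatgccgcgag

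The AP-1 letters TGANTCA were in 3.32% of the Zfp promoters, against 6.75% of all promoters. The cyclic AMP response element TGACGTCA was in 3.73%, against 1.55% of all promoters. In the 50 promoters of genes called lower these were 6.0% and 2.0% (3 and 1 promoters), and the 13 of genes called higher held neither. The letters of these motifs do not overlap with ACTACAA, and a match of letters is a description of the sequence, not of a bound site.

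Across the family, levels were slightly lower in LMF. By edgeR's quasi-likelihood test adjusted by Benjamini-Hochberg over all 14074 genes that passed the filter, with a threshold of 0.05, 15 of the 240 genes rose in LMF (6.25%, where 17.5% of all tested genes rose) and 50 fell (20.8%, where 16.9% of all tested genes fell). The other 175 did not pass. All 240 had passed the filter on low counts. The median log2 fold change of LMF over Control was -0.12, against 0.00 over all tested genes, and 172 of the 240 values were negative. The 4 LMF libraries lay above all 4 Control libraries for 5.0% of the genes (16.1% of all tested genes) and below them for 22.9% (15.7% of all tested genes).

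The shift was present in each library. The median deviation of the 240 genes from their Control mean was -0.09, -0.15, -0.09 and -0.11 (log2) in LMF 1 to 4, against 0.01, 0.02, -0.01 and 0.00 in Control 1 to 4. In every LMF library between 65.8% and 75.8% of the genes were below their Control mean, against 44.6% to 52.9% in the Control libraries. The Control values centre near 0 by construction, since the mean is that of the same 4 libraries. Summed over the family, expression was 5915 ± 114 CPM in LMF and 6300 ± 30.3 CPM in Control (SD, n = 4 each), and the libraries of the groups did not overlap.

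**Figure D1:**
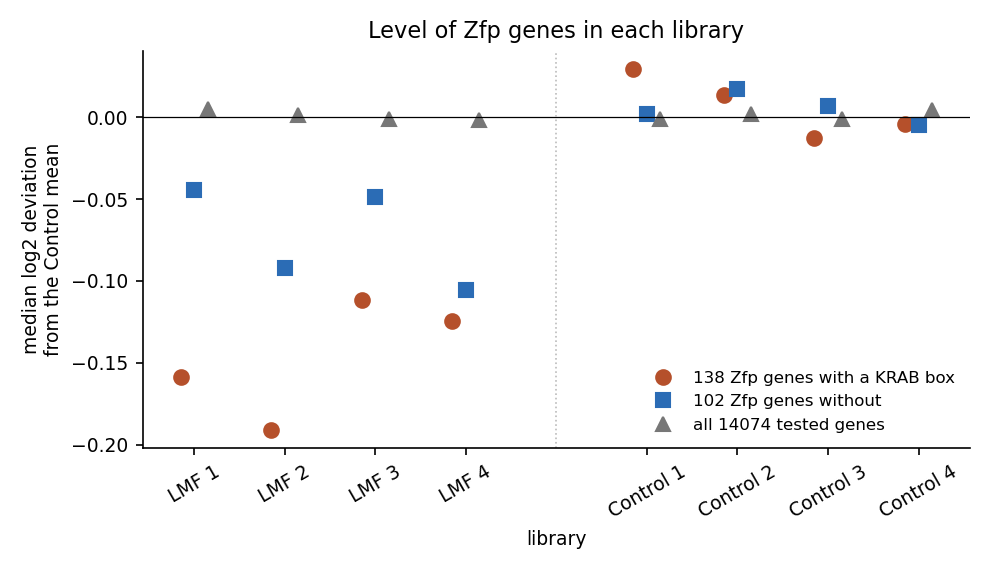
Median log2 deviation from the Control mean in each of the 8 libraries (LMF left, Control right), for Zfp genes with a KRAB box (circles), without (squares) and all tested genes (triangles). Both kinds of Zfp genes lie below 0 in all 4 LMF libraries, with KRAB genes between -0.11 and -0.19, while all tested genes stay within 0.01 of 0.

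The KRAB genes had a lower median than the rest of the family but not a larger share of decreases. Of 138 KRAB genes 3 rose (2.17%) and 28 fell (20.3%), with a median log2 fold change of -0.17. Of the 102 genes without the box 12 rose (11.8%) and 22 fell (21.57%), with a median of -0.08. Among all tested genes 17.5% rose and 16.9% fell. The KRAB genes summed to 1942 ± 57.8 CPM in LMF and 2124 ± 28.2 CPM in Control, and the others to 3973 ± 66.6 CPM in LMF and 4176 ± 24.6 CPM in Control (SD, n = 4 each). The KRAB genes were also less abundant, with a median of 1475 summed counts against 4224 for the others. From 400 to under 1000 counts, 12.5% of 40 KRAB genes and 10.0% of 10 others fell, with medians of -0.20 and 0.07. From 1000 to under 3000 counts, 22.5% of 71 KRAB genes and 26.9% of 26 others fell, with medians of -0.20 and -0.15. From 3000 to under 10000 counts, 24.0% of 25 KRAB genes and 15.7% of 51 others fell, with medians of -0.10 and -0.05. The range from 10000 counts held only 2 KRAB genes beside 15 others, with medians of -0.08 and -0.04. The difference between the KRAB genes and the others was not tested. A further 61 tested genes with a KRAB box but another kind of name had a median of -0.16, with 2 higher (3.28%) and 8 lower (13.1%).

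**Figure D2:**
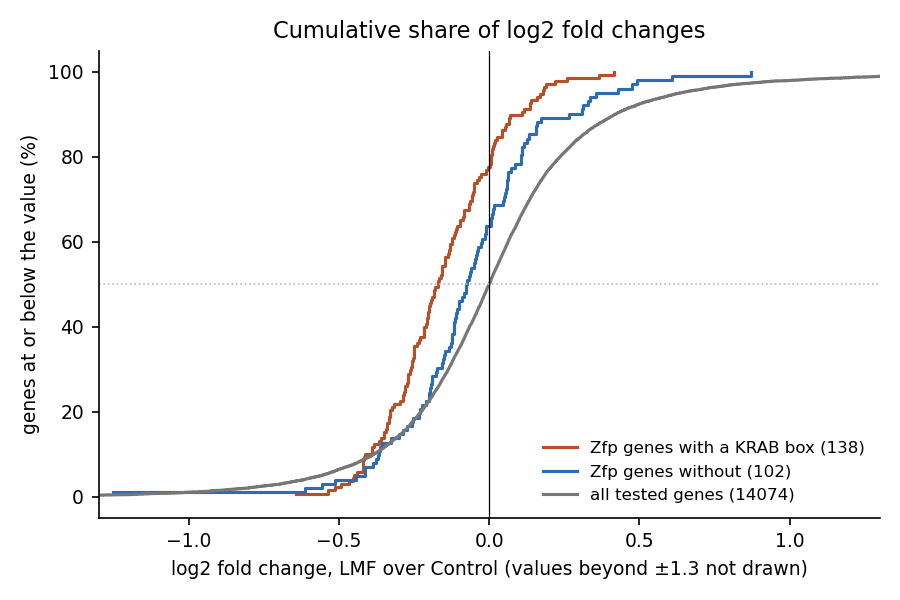
Cumulative share of genes (%) against the log2 fold change of LMF over Control, for 138 Zfp genes with a KRAB box, 102 without and all 14074 tested genes. The curve of the KRAB genes crosses 50% at -0.17 and ends at 0.41, below the upper tail of all tested genes.

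Genes of like expression did not share the lower median. The 50 Zfp genes with 400 to under 1000 summed counts had a median log2 fold change of -0.14, against -0.01 for all tested genes of that range. With 1000 to under 3000 counts the medians were -0.19 for 97 Zfp genes and -0.02 for all tested genes. With 3000 to under 10000 counts they were -0.06 for 76 Zfp genes and -0.01 for all, and from 10000 counts they were -0.04 for 17 Zfp genes and 0.01 for all. Increases were few in each range: 1, 3, 11 and 0 Zfp genes rose, from low to high counts, where 10.7%, 14%, 19.8% and 30.4% of all tested genes of the range did. Decreases numbered 6, 23, 14 and 7, beside 11.7%, 16.2%, 20.6% and 26.9% of all tested genes. At those shares 240 genes of this abundance would give 39.2 increases and 41.8 decreases, against the 15 and 50 called. The count of increases was thus below the count at those shares and the count of decreases above it, which is a description without a test.

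**Figure D3:**
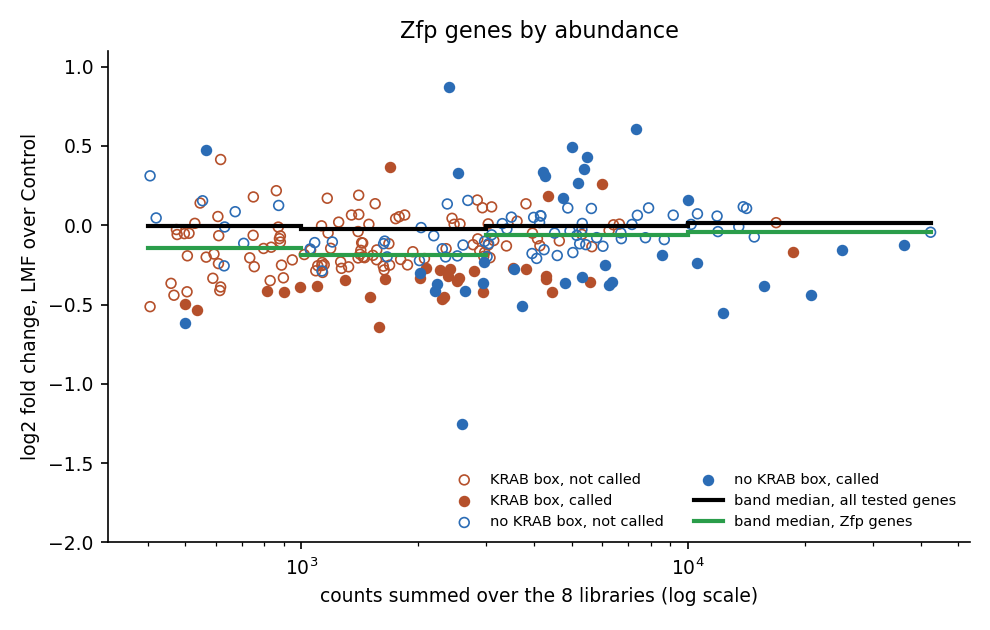
Log2 fold change of LMF over Control against summed counts (log scale) for the 240 Zfp genes, filled where called, with the median of each range of counts for the Zfp genes and for all tested genes. In each range the median of the Zfp genes lies below that of all tested genes, by the most from 1000 to under 3000 counts (-0.19 against -0.02).

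The shift was seen at each GC content. Transcripts of the 240 genes had a median GC content of 43.8% (KRAB genes 41.2%, others 50.4%), against 49.4% for all tested genes. The 132 Zfp genes under 45% GC had a median log2 fold change of -0.13, with 6 higher (4.55%) and 23 lower (17.4%). Among all tested genes with at least 400 counts and a GC content under 45%, the median was 0.03, with 23.7% higher and 14.6% lower. Zfp genes of 45% to 50% GC and of 50% or more had medians of -0.12 and -0.12, against 0.02 and -0.04 for all such genes.

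The changes were small. Of the 65 called genes, 1 differed by 2-fold or more and 5 by 1.5-fold or more, while 11 differed by less than 1.2-fold. When tested against a change of 1.2-fold, 4 genes (1.67%) were called higher and 8 (3.33%) lower, where 5.44% of all tested genes were higher and 4.46% lower. By that test the share of decreases was thus below that of all tested genes, not above it. Log2 fold changes ranged over the family from -1.25 (Zfp395) to 0.87 (Zfp503).

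Among genes that rose, Zfp503, a transcriptional corepressor of neural and limb development, had 19.6, 24.5, 18.8 and 23.0 CPM in LMF, against 12.2, 13.4, 11.5 and 9.83 CPM in Control. The groups do not overlap, and the log2 fold change was 0.87 ± 0.10 (SE, edgeR adjusted p = 1.66e-08). Its relative Zfp703, a corepressor known in human as a breast cancer oncogene, fell. Zfp703 had 36.1, 38.7, 35.7 and 37.1 CPM in LMF, against 47.1, 47.4, 49.4 and 47.7 CPM in Control, with a log2 fold change of -0.38 ± 0.06 (edgeR adjusted p = 3.21e-06). Every LMF library was below every Control library for this gene.

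Zfp366 encodes DC-SCRIPT, a transcriptional regulator found in dendritic cells. It had 60.3, 58.7, 64.7 and 59.4 CPM in LMF, against 41.5, 39.0, 41.8 and 37.0 CPM in Control. No LMF library was within the Control range, and the log2 fold change was 0.61 ± 0.06 (edgeR adjusted p = 1.27e-10). Per length it averaged 9.49 ± 0.46 FPKM in LMF and 6.25 ± 0.39 FPKM in Control (SD, n = 4 each).

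Zfp131, a transcription factor with a BTB domain, had 44.2, 38.4, 46.8 and 42.3 CPM in LMF, against 32.6, 32.6, 32.3 and 29.8 CPM in Control (log2 fold change 0.43 ± 0.07, edgeR adjusted p = 3.04e-06). Zfp654 had 36.0, 39.7, 42.1 and 42.7 CPM in LMF, against 27.9, 28.6, 28.8 and 28.8 CPM in Control (0.49 ± 0.07, edgeR adjusted p = 3.15e-07). Both genes were above the Control range in every LMF library. Zfp800 (0.36 ± 0.07), Zfp275 (0.34 ± 0.08), Zfp407 (0.33 ± 0.10) and Zfp326 (0.31 ± 0.08) also rose. Zfp326 belongs in human to a complex that links transcript elongation with splicing. The LMF and Control libraries of Zfp407 overlap, and its call was lost when log2 FPKM was tested (edgeR adjusted p = 0.00687, limma-trend adjusted p = 0.0913 and 0.102).

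Zfp827, whose human form recruits the NuRD complex to telomeres, was low, at 4.6, 4.40, 5.45 and 3.56 CPM in LMF, against 3.12, 3.20, 3.52 and 3.14 CPM in Control. Its log2 fold change was 0.48 ± 0.18, and the edgeR adjusted p of 0.0395 reached 0.163 without LMF replicate 3. Zfp948 was the KRAB gene with the largest called increase, with 12, 11.8, 12.8 and 15.8 CPM in LMF, against 11.3, 10.5, 8.71 and 10.1 CPM in Control. Its log2 fold change was 0.36 ± 0.11 (edgeR adjusted p = 0.012). Without LMF replicate 4 that p was 0.0946, and without Control replicate 3 it was 0.0624.

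Among genes that fell, Zfp395 had the largest change. In human, ZNF395 is a transcription factor induced by low oxygen. Zfp395 had 12.8, 10.1, 9.50 and 8.80 CPM in LMF, against 22.9, 25.4, 25.8 and 24.0 CPM in Control. The highest LMF library was far below the lowest Control library, with a log2 fold change of -1.25 ± 0.10 (edgeR adjusted p = 1.71e-12).

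Zfp652, which in human represses transcription together with a corepressor of the ETO family, had 69.0, 65, 67.5 and 67.0 CPM in LMF, against 99.2, 97.1, 101 and 97.1 CPM in Control. The groups were tight and apart, with a log2 fold change of -0.56 ± 0.05 (edgeR adjusted p = 5.86e-12). Zfp652 overlaps Abi3 on the opposite strand, and the labels do not say whether counting kept strand, so reads of the pair may be mixed. Zfp467, a factor that in mouse favours fat over bone formation, had 24.0, 21, 19.3 and 18.8 CPM in LMF, against 28.8, 28.7, 32.9 and 28.0 CPM in Control (-0.51 ± 0.08, edgeR adjusted p = 6.45e-06). No LMF library of Zfp467 reached the Control range.

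Among called genes, the KRAB genes with the largest decreases were Zfp157, Zfp975, Zfp763, Zfp961, Zfp398 and Zfp810. Zfp772, at the edge of the count minimum, had a log2 fold change of -0.51 ± 0.22 that did not pass (edgeR adjusted p = 0.068). Zfp157 had 9.43, 6.93, 8.96 and 8.02 CPM in LMF, against 13.6, 13.8, 12 and 12.7 CPM in Control, with no overlap (log2 fold change -0.64 ± 0.11, edgeR adjusted p = 2.53e-05). Zfp961 had 13.4, 14.8, 11.9 and 12.6 CPM in LMF, against 17.1, 18.5, 18.8 and 18.4 CPM in Control (-0.47 ± 0.09, edgeR adjusted p = 0.000149). It overlaps Cyp4f18 on the opposite strand. Zfp398 (-0.45 ± 0.10) and Zfp810 (-0.45 ± 0.12) kept their calls in all 18 alternatives, which do not include the test against a 1.2-fold change.

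Zfp975 and Zfp763 were near the lower end of the counts and less firm. Zfp975 had 2.81, 2.82, 3.18 and 3.08 CPM in LMF, against 3.48, 5.60, 3.79 and 4.42 CPM in Control (-0.54 ± 0.19, edgeR adjusted p = 0.0279, and 0.166 without Control replicate 2). A share of 40.7% of its 50-base words also occurs in other genes, first of all Zfp976, so its reads may be split between copies. Zfp763 had 2.36, 3.04, 2.48 and 3.32 CPM in LMF, against 4.63, 3.73, 3.79 and 3.55 CPM in Control (-0.49 ± 0.19, edgeR adjusted p = 0.0462, and 0.163 without Control replicate 1). Zfp72, without a KRAB box by the search used, had 2.30, 3.66, 2.05 and 2.71 CPM in LMF, against 3.03, 5.22, 3.41 and 4.83 CPM in Control. The libraries of Zfp72 overlap (-0.61 ± 0.22, edgeR adjusted p = 0.0255, and 0.126 without Control replicate 2).

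**Figure D4:**
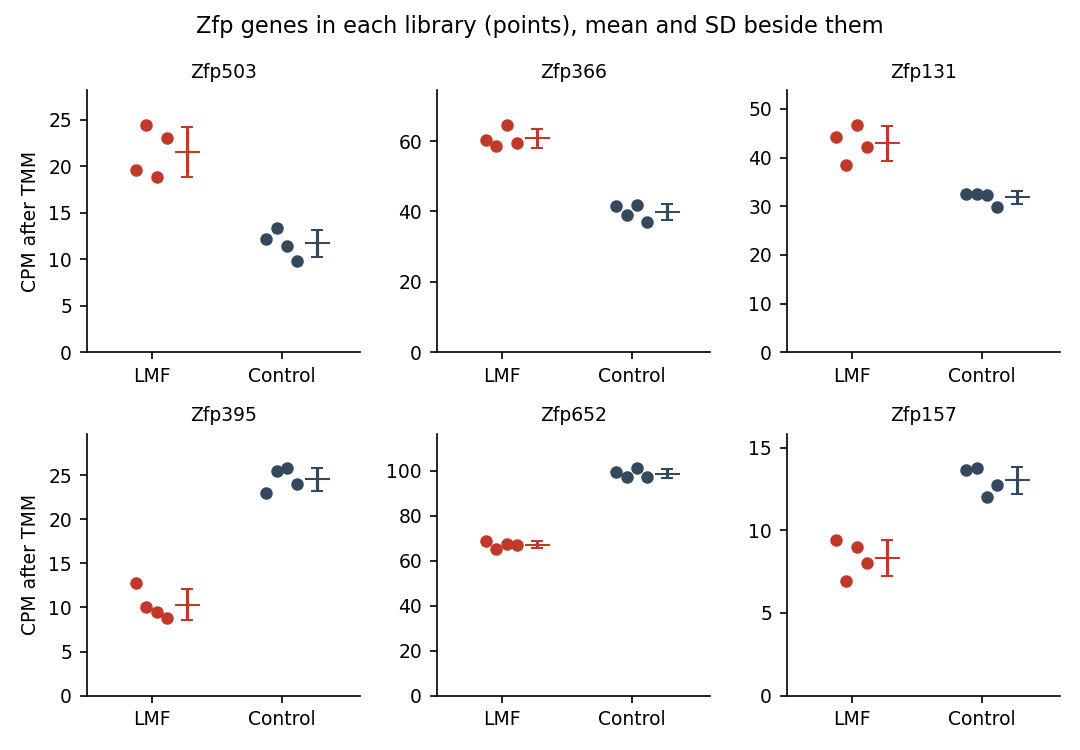
CPM in each of the 4 LMF (left) and 4 Control (right) libraries for 3 genes that rose and 3 that fell, with the mean and SD beside the points. The groups do not overlap in any of the 6 panels, and Zfp395 shows the largest fold difference, with LMF libraries at 8.80 to 12.8 CPM and Control libraries at 22.9 to 25.8 CPM.

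Of 24 tested Zfp genes with known roles in transcription and chromatin, 3 rose (Zfp131, Zfp827 and Zfp608), 5 fell (Zfp217, Zfp467, Zfp395, Zfp652 and Zfp703) and 16 did not pass, with a median log2 fold change of -0.02. These shares, 12.5% higher and 20.8% lower, are near those of all tested genes (17.5% and 16.9%), so nothing is read from them about the list. Zfp217, an oncogene in human that works with the corepressor CtBP, had 175, 153, 160 and 152 CPM in LMF, against 181, 175, 178 and 179 CPM in Control. Its groups touch, at 175 CPM in both, and its log2 fold change was -0.16 ± 0.04 (edgeR adjusted p = 0.0042). Zfp608 was at 0.17 ± 0.07 with an edgeR adjusted p of 0.0485, and the call was lost in 13 of 18 alternatives, with an adjusted p up to 0.21 without LMF replicate 4. Zfp143, whose motif is given above, averaged 24.2 ± 1.48 CPM in LMF and 23.4 ± 1.35 CPM in Control (SD, n = 4 each), with a log2 fold change of 0.05 ± 0.08 (edgeR adjusted p = 0.669). Zfp410, an activator that acts largely through Chd4, averaged 35.8 ± 2.16 CPM in LMF and 36.5 ± 1.76 CPM in Control, a log2 fold change of -0.03 ± 0.07 (edgeR adjusted p = 0.787).

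Of 8 tested Zfp genes of RNA, ribosome and ubiquitin biology, 1 rose (Zfp326) and 1 fell (Zfp207), or 12.5% each. Among all tested genes 17.5% rose and 16.9% fell, so nothing is read from this list. Zfp207, a spindle protein that binds Bub3, had 237, 225, 238 and 238 CPM in LMF, against 259, 260, 247 and 259 CPM in Control, with a log2 fold change of -0.13 ± 0.04 (edgeR adjusted p = 0.008). Its groups do not overlap although the change is small. Zfp106, an RNA-binding protein needed for motor neurons in mouse, was at 284 ± 7.94 CPM in LMF and 293 ± 5.27 CPM in Control (SD, n = 4 each). Its log2 fold change of -0.04 ± 0.04 did not pass. Zfp598, which marks collided ribosomes with ubiquitin in human cells, was at -0.04 ± 0.05 and Zfp622, a ribosome maturation factor, at 0.07 ± 0.05, and neither passed.

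The 5 tested genes tied to imprinting and retroelements gave 1 call in each direction, or 20.0% each. Among all tested genes 17.5% rose and 16.9% fell, and the list is too short to read a share from. Zfp568, which represses a placental Igf2 promoter, had 32.3, 28.8, 30.7 and 34.7 CPM in LMF, against 27.7, 28.7, 27.6 and 27.2 CPM in Control. The lowest LMF library was only just above the highest Control library. The log2 fold change was 0.18 ± 0.07 (edgeR adjusted p = 0.0467), and the call was lost in 15 of 18 alternatives, with adjusted p up to 0.233 with offsets for GC content and length. Zfp961 fell, as given above. Zfp445, which maintains imprints, was at 0.02 ± 0.04, Zfp809, which starts the silencing of murine leukemia viruses, at 0.01 ± 0.09, and Zfp932 at -0.16 ± 0.14. None of these 3 passed, and Zfp57 and Zfp708 had too few counts to be tested.

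Of 33 tested genes of the KRAB corepressor machinery, which are not Zfp genes, 6 rose (18.2%) and 5 fell (15.2%), with a median log2 fold change of 0.01. These shares are near the 17.5% and 16.9% of all tested genes, so nothing is read from them about the list, and the genes below are given for their own values. Trim28, the partner of the KRAB box, had 190, 176, 170 and 169 CPM in LMF, against 202, 190, 200 and 189 CPM in Control. The highest LMF library lies within the Control range, and the log2 fold change was -0.14 ± 0.04 (edgeR adjusted p = 0.00683). Setdb1, the histone H3 lysine methyltransferase brought by Trim28, had 64.8, 61.8, 74.8 and 64.1 CPM in LMF, against 86.6, 82.0, 83.7 and 87.6 CPM in Control (-0.36 ± 0.05, edgeR adjusted p = 2.31e-06). Its groups do not overlap. Uhrf1, which guides maintenance DNA methylation, had 43.6, 40.5, 45.9 and 44.1 CPM in LMF, against 23.3, 27, 26.1 and 22.2 CPM in Control (0.82 ± 0.07, edgeR adjusted p = 1.25e-11). Chd4, the remodeller of NuRD, rose by less, at 0.19 ± 0.04 (edgeR adjusted p = 5.48e-05).

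Related C2H2 families were also counted. Of 36 tested Zbtb genes 5 rose (13.9%) and 6 fell (16.7%), with a median log2 fold change of -0.02. Among all tested genes 17.5% rose and 16.9% fell, so nothing is read from the Zbtb counts. Of 10 Zscan genes none rose and 1 fell (10.0%, median -0.06), and of 8 Zkscan genes none rose and 3 fell (37.5%, median -0.19). Both families are too small to read a share from. The 60 tested Zfp genes under the count minimum had a median of -0.07, with 2 higher (3.33%) and 3 lower (5.0%).

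The 240 genes were spread over the genome but dense on 3 chromosomes, with 57 on chromosome 7, 34 on chromosome 17 and 21 on chromosome 13. Joining neighbours less than 500000 bases apart gave 10 clusters of 5 or more members, which hold 88 of the genes. In clusters 2 genes rose (2.27%) and 16 fell (18.2%, near the 16.9% of all tested genes), with a median of -0.14. Outside them 13 of 152 rose (8.55%) and 34 fell (22.4%), with a median of -0.12. The lowest median was that of 10 genes at chr17:32765496-33631779 (GRCm38), 9 of them with a KRAB box, at -0.28. There Zfp763, Zfp414, Zfp952, Zfp472 and Zfp871 fell and 9 of 10 values were negative. Zfp414 shares 43.9% of its 50-base words with other genes. The 8 genes at chr6:47835661-48623227 had a median of -0.21, and Zfp282, Zfp398 and Zfp467 fell. The 9 genes at chr7:29768552-30169750, which include Zfp568, had a median of 0.02, with 1 higher and 1 lower. The 12 genes at chr13:67121660-67827002, all with a KRAB box, had a median of -0.17 and 1 call. Clusters thus differed in median, and these differences were not tested.

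**Figure D5:**
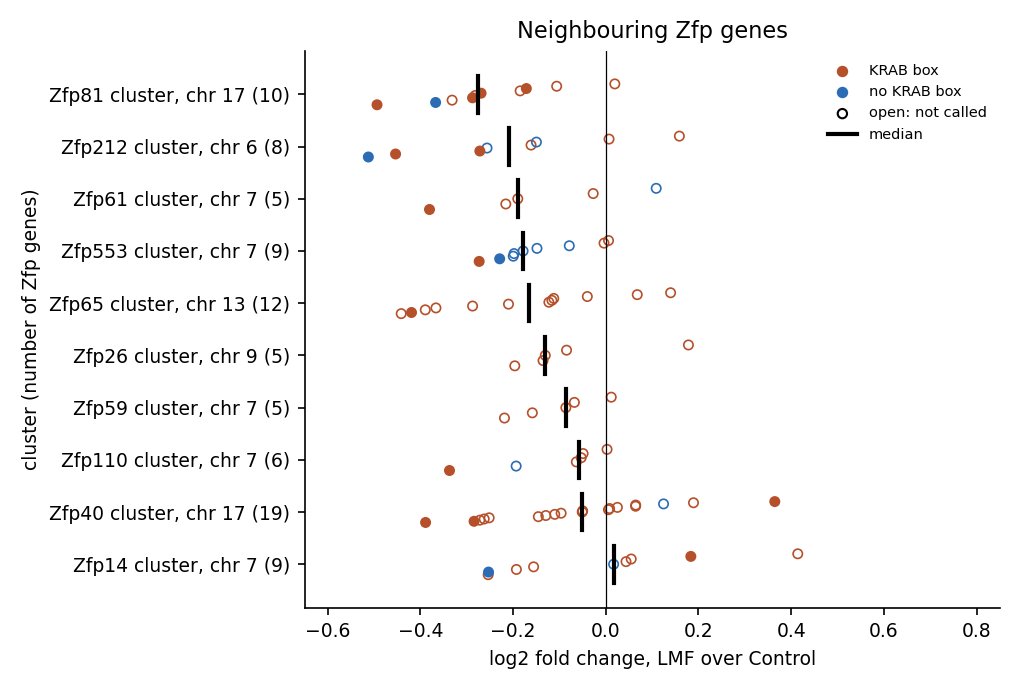
Log2 fold change of LMF over Control for the Zfp genes of the 10 clusters, named by a member, with the median of each as a bar and called genes filled. Medians run from -0.28 in the Zfp81 cluster at the top to 0.02 in the Zfp14 cluster at the bottom, and 9 of the 10 are below 0.

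Spearman's rho of the log2 fold change with the number of fingers was -0.09 over the 240 genes, with GC content 0.05, with summed counts 0.20 and with protein length 0.21. Within the KRAB genes rho was 0.03 with GC content and 0.15 with protein length, and within the others it was -0.22 with GC content and 0.27 with protein length. These are descriptions across genes that share the same 8 libraries. Reads of relatives may be split: 80 of the 240 genes share at least 1% of their 50-base words with another gene and 21 share at least 20%. Among the 160 genes under 1%, 14 rose (8.75%) and 37 fell (23.1%), with a median of -0.12, beside 17.5% and 16.9% of all tested genes. A further limit is overlap with another gene, which 21 members have. Without these, 14 rose (6.39%) and 42 fell (19.2%, near the 16.9% of all tested genes), and the median stayed at -0.12.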

How the data were processed

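Counts per gene and library, and FPKM beside them, were deposited by the authors in a table of the whole series. The submitters' processing notes name mm10 as the build and HISAT2 2.0.5, Trimmomatic, DESeq2 and HTSeq as tools, and the role and settings of each are not given in the sources used here. Per the labels' protocols, polyadenylated RNA was captured, and whether strand was kept is not stated. Every column was mapped to a sample, and groups were taken from the sample titles, since another label gives all 8 the same treatment.

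The members, lists and rules were chosen with earlier results of these data known. Genes named are the 10 largest increases and decreases among called members, members of the role lists, 3 on each side of the count minimum, the 3 most abundant by FPKM and the 3 corepressor genes of smallest adjusted p. Trim28, Zfp142, Zfp414, Zfp952, Zfp472, Zfp871, Zfp282 and the genes named only for a promoter window or a cluster were named after their values were seen.

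Robust quasi-likelihood F tests of edgeR 4.0.16 (R 4.3.3) were run on the deposited counts with filterByExpr, TMM and Benjamini-Hochberg adjustment over 14074 genes at 0.05. CPM are scaled with TMM. Deviations used log2(CPM + 0.5). The KRAB box was searched with a HMMER 3.4 profile (E of 1e-05) made from 164 windows of 40 residues found by a pattern in GENCODE M21 proteins. The plan was to use a RefSeq protein table and otherwise leave the KRAB box out, and this search replaced it after the files were seen. Gene positions are those of M21 (GRCm38), not the table's own. Within groups, library pairs gave a chi-square per degree of freedom of 3.50 to 7.80, and between groups 26.6 to 35.2. This check looks for copies of the same library and cannot show separate cultures or mice. Each library was counted as its own sample, as the labels list them.

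Alternatives were DESeq2 (1.42.0) size factors and test, upper-quartile factors, limma-voom with sample weights and limma-trend (limma 3.58.1) on log2 FPKM with 1 or 0.1 added, 2 other filters, a replicate block, offsets for GC content and length, leaving out each library, count minimums of 200 and 1000 and a test against 1.2-fold. Finding KRAB by the pattern alone, members under 1% shared words and members with no overlapping gene were added after seeing the data. The scripts' tests were also tested on simulated data, with changes given to genes drawn from all tested genes. Of genes changed by 1.25-, 1.5-, 2- and 4-fold (50 genes each), 64%, 70%, 76% and 94% were called, and 9 unchanged genes were called. In the data 2464 genes were called higher and 2381 lower, far more than were changed in the simulation. The adjustment is stricter where fewer genes change, so these shares do not give the recovery in the data. A gene that was not called may still differ.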

Additional observations from a re-analysis of the deposited data

Results flagged for a closer look

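In 6 of 118 groups of 4 libraries of the named genes, 1 library stood apart from the other 3 by Dixon's test, where chance gives about 5.9. Zfp131 had 29.84 CPM in Control replicate 4, below 32.34 to 32.6 CPM in the other Control libraries. Zfp467 had 32.93 CPM in Control replicate 3, above 28.04 to 28.75 CPM in the others. Zfp207 had 225.2 CPM in LMF replicate 2, below 237.5 to 238.2 CPM in the other LMF libraries, and 247.0 CPM in Control replicate 3, below 258.5 to 259.9 CPM in the other Control libraries. Zfp384 had 88.71 CPM in LMF replicate 4, below 92.25 to 92.87 CPM in the others, and Zfp516 had 97.51 CPM there, below 100.5 to 101.1 CPM. The calls of Zfp131, Zfp467 and Zfp207 held when each library was left out in turn, and Zfp384 was called in no alternative.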

How the results depend on the processing

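The members' median log2 fold change stayed negative and their decreases outnumbered increases in every alternative run. Under offsets for GC content and length the median was -0.15, with 68 of 240 members called lower and 11 higher. There 17.93% of all tested genes were lower and 17.48% higher. Under limma-trend on log2(FPKM + 1) the median was -0.096, on a scale whose pseudocount shrinks low genes. A test against a 1.2-fold change called 4 members higher and 8 lower, of which 0 and 3 were KRAB genes. The members' shares there were 1.67% higher and 3.33% lower (KRAB genes 2.17% lower), against 5.44% and 4.46% of all tested genes, so decreases were below the background share where they had been above it. Among KRAB genes under 1% shared words, chosen after seeing the data, 18 fell, from a smaller set of 77 (23.4%, beside 16.9% of all tested genes). Leaving out each library in turn gave 11 to 15 members higher and 43 to 59 lower, with a median of -0.142 to -0.113. KRAB genes gave 1 to 4 higher and 22 to 32 lower. Of all tested genes 15.23% to 17.54% were higher and 14.84% to 17.64% lower in those fits. The count of 1 KRAB gene higher came without LMF replicate 4 and without Control replicate 3. With the last digit of the title code as a replicate block, 13 members were called higher and 51 lower. The median with that block was -0.13, KRAB genes gave 2 and 27, and all tested genes gave 17.17% higher and 16.75% lower. Deviations of same-numbered libraries correlated at 0.0046, 0.028, -0.00080 and -0.013. These values gave no sign of pairing by number but cannot exclude a weak one. The named genes were followed in 18 alternatives, which leave out the test against a 1.2-fold change and the changes of the member set. Of 59 named genes tested, 28 were called, and 20 of these kept the call in all 18. Zfp568 lost it in 15, Zfp608 in 13, Zfp827 and Zfp763 in 10 each, Zfp72 in 6, Zfp975 in 4, Zfp948 and Zfp407 in 2 each. Of 31 uncalled genes 5 were called in some alternative (Zfp91, Zfp148, Zfp292, Zfp516 and Zfp772), and 10 with values near 0 changed sign in some. No called gene changed sign. Depth limits the low end: the median SE was 0.18 for members of 400 to under 1000 summed counts and 0.047 from 10000 counts.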
